A study of Mus musculus with 5 samples.

Results

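The genes described here encode the receptors for glutamate and for gamma-aminobutyric acid (GABA), the main excitatory and the main inhibitory transmitter of the brain. They are 48 of the 21896 protein-coding genes of the RefSeq annotation of mouse GRCm38.p6, the assembly of mm10, and were taken by gene symbol. The set holds 18 genes of ionotropic glutamate receptors (Gria, Grid, Grik and Grin), 8 of metabotropic glutamate receptors (Grm), 19 of GABA-A receptors (Gabr) and 2 of GABA-B receptors (Gabbr). The symbols also take in Grina, which encodes a membrane protein that is no receptor subunit; it is counted in all totals.

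The series asked where TLX binds, and which regions carry acetylated lysine 27 of histone H3 (H3K27ac), in mouse brain tumour stem cells (BTSC) and neural stem cells (NSC) in culture. TLX is an orphan nuclear receptor that keeps neural stem cells in an undifferentiated state, and H3K27ac marks active promoters and enhancers. The 2 TLX groups, BTSC and NSC, carried TLX-3xTY1 delivered by retrovirus and were precipitated with a TY1 antibody, so the peaks are those of the added, tagged protein. The 2 H3K27ac groups, BTSC and NSC, are labelled as not transduced, although the growth protocol given with every sample speaks of transduction with TLX-3xTY1. An antibody-free control of cells holding the empty vector MSCV-neo gave no peak list used here. Each group was 1 library, so no value below has a replicate check, and no test between the cultures was made. The labels used here give no mouse strain, age, tumour genotype or number of animals behind a culture, and the samples hold no TY1 precipitation from cells without the tag.

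The deposited peak lists had 1436 TLX peaks in BTSC and 7458 in NSC, and 31597 H3K27ac peaks over 74.1 Mb in BTSC and 31266 over 68.5 Mb in NSC. The depth of the libraries is not known, so a missing peak means only that none was called. At their ends, all 5 neural stem cell markers (Sox2, Nes, Vim, Fabp7 and Slc1a3) and all 5 oligodendrocyte precursor markers had H3K27ac in both cultures. So did 3 of 4 astrocyte markers in BTSC and 2 of 4 in NSC, and 0 of 4 microglia markers in either. Of 6 neuron markers 1 had it in BTSC and 3 in NSC. The neuron markers together had 7677 H3K27ac-covered bp near their ends in BTSC and 8972 in NSC. Of these 6, 2 had more in BTSC, the larger difference being 790 bp in BTSC against 0 in NSC, and 3 had more in NSC, the largest difference being 2019 bp in BTSC against 2892 bp in NSC. Stmn2 had 0 in both. All 4 astrocyte markers had more in BTSC, with 69691 bp in all in BTSC and 42186 bp in NSC. Of the 5 stem cell markers 3 had more in BTSC and 2 in NSC, with 101590 bp in BTSC and 108178 bp in NSC. Of the 5 oligodendrocyte precursor markers 2 had more in BTSC and 3 in NSC, with 118213 bp in BTSC and 130575 bp in NSC. Of all protein-coding genes 42.9% had more in BTSC and 30.4% in NSC. What part these markers have in the receptor results was not tested.

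Glutamate acts through channels that open fast (AMPA, kainate and NMDA receptors) and through metabotropic receptors that signal by G proteins; GABA acts through the GABA-A chloride channels and the G protein-coupled GABA-B receptor. Each channel is built from several subunits, whose genes decide its kinetics and its ion selectivity. Beyond synapses, neural progenitors, astrocytes and glioma cells are known to express some of these receptors. Many of the genes are long: the median length was 160403 bp, against 17149 bp over all protein-coding genes, and a longer gene has more room for a peak.

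TLX peaks lay at 3 of the 48 receptor genes in BTSC and at 12 in NSC, counting peaks inside a gene or within 10 kb of it. That is 6.25% in BTSC (exact 95% interval 1.31 to 17.2, covering counting error only), beside 5.12% of all protein-coding genes. In NSC it is 25% (13.6 to 39.6), beside 24.8%. Gabrg1 and Gria1 had a peak in both lists, which is 4.17%, beside 4.59% of all genes, and Grm4 had one in the BTSC list only. In NSC the other genes included Gria2, Grid1, Grik3, Grik4, Grin2b, Grm3, Grm5, Grm7 and Gabra2. Among the 26 receptor genes of at least 100 kb, 1 had TLX in BTSC (3.85%, 0.0973 to 19.6) and 11 in NSC (42.3%, 23.4 to 63.1). Of the 2428 protein-coding genes of that length, 13.8% had it in BTSC and 51.4% in NSC. The shares of the receptor genes thus stood near those of all genes, and the intervals of the long ones hold the shares of all genes of that length. When the NSC list was shortened by q to the number of BTSC peaks, TLX lay at 3 genes in BTSC and 4 in NSC. The share of all genes under that cut was not counted, so the 4 have no background beside them.

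H3K27ac within 1 kb of either gene end was found at 22 receptor genes in BTSC and at 23 in NSC. These are 45.8% (31.4 to 60.8) in BTSC, beside 51.7% of all protein-coding genes, and 47.9% (33.3 to 62.8) in NSC, beside 52.2%. Of the receptor genes of at least 100 kb, 53.8% in BTSC and 61.5% in NSC had it, beside 60.9% in BTSC and 63.1% in NSC of all genes of that length. In both cultures 19 genes were marked (39.6%, beside 49.6% of all genes). The BTSC list alone marked Gabbr2, Gabra4 and Gabrb1 (6.25%, 1.31 to 17.2, beside 2.09%), of which the last 2 share 1 peak. None of the 3 kept its peak with −log10 q of 5 or more, where Grm4 was the 1 gene of that class. The NSC list alone marked 4 genes, among them Gria4, Grik1 and Grm8 (8.33%, 2.32 to 20, beside 2.62%). Of the receptor genes of at least 100 kb, 7.69% (0.946 to 25.1) were marked in BTSC alone and 15.4% (4.36 to 34.9) in NSC alone. Of all genes of that length 3.01% were marked in BTSC alone and 5.19% in NSC alone, values that these intervals hold. The other 22 genes had no peak at an end in either list (45.8%, beside 45.7% of all genes).

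The directions were less even for the covered length, that is, the base pairs under H3K27ac peaks up to 25 kb on both sides of either end of a gene. It was larger in BTSC at 10 receptor genes (20.8%), beside 42.9% of all protein-coding genes, and larger in NSC at 23 (47.9%), beside 30.4%. On chromosome 1, which holds no receptor gene, H3K27ac peaks covered 6.71 Mb in BTSC and 4.04 Mb in NSC. Scaled by the covered length of each chromosome, 9 of the 48 receptor genes had more in BTSC, beside 36.4% of all genes. On that scale 24 had more in NSC, beside 37.0%. At 15 genes no base was covered in either culture (31.2%, beside 26.7% of all genes). Among receptor genes of at least 100 kb, 4 had more in BTSC (15.4%) and 16 in NSC (61.5%), beside 45.9% with more in BTSC and 40.5% with more in NSC of all genes of that length. Where any base was covered, the median difference, BTSC minus NSC, was -596 bp over 33 receptor genes and 219.5 bp over 16060 protein-coding genes. Differences of over 1.5 times were seen at 7 receptor genes toward BTSC (14.6%) and 11 toward NSC (22.9%). Of all genes 15.1% had such a difference toward BTSC and 10.0% toward NSC. Of all genes of at least 100 kb 19.5% had it toward BTSC and 16.9% toward NSC. Summed over the 48 genes, the covered length was 157186 bp in BTSC and 164607 bp in NSC. Gabbr1 and Grm3, both with more in BTSC, have the largest covered lengths of the set there.

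**Figure D1:**
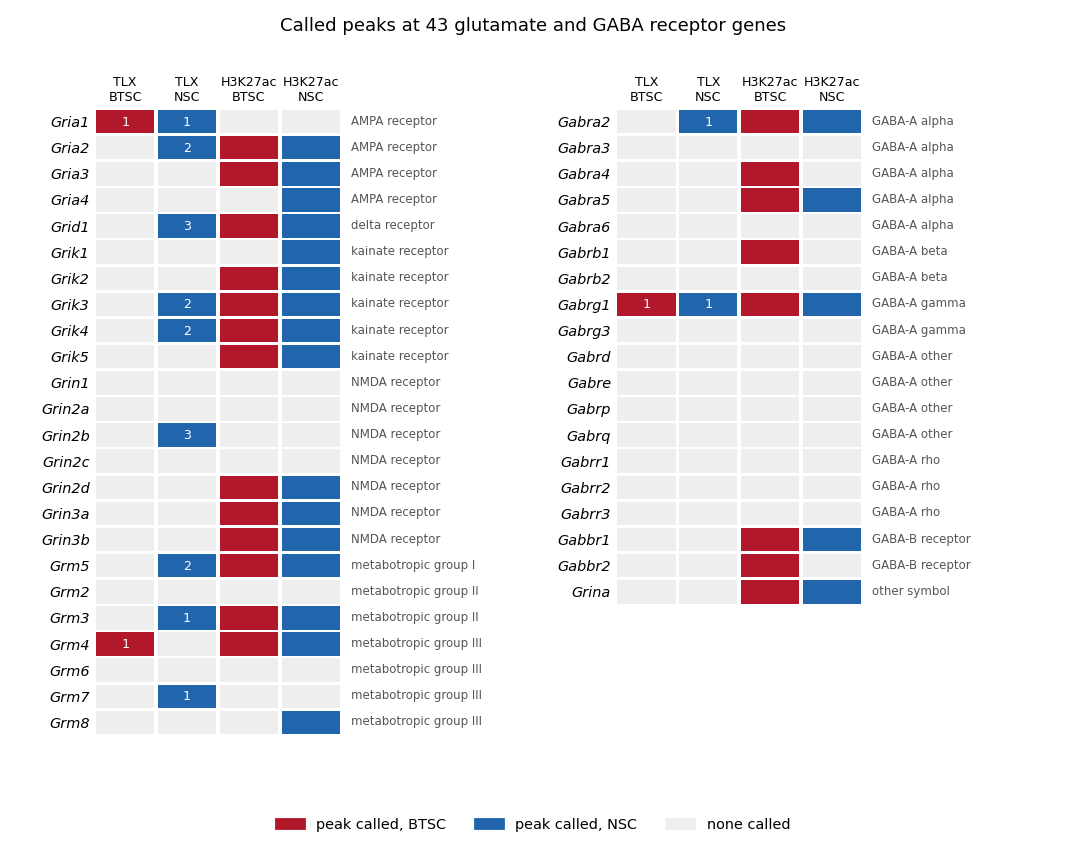
Called peaks at 43 of the 48 receptor genes, with a row for each gene with its receptor class; columns give TLX and H3K27ac in BTSC (red) and NSC (blue), grey means none called, and the white numbers count TLX peaks inside the gene or within 10 kb. TLX cells are filled at 3 genes in BTSC and 11 in NSC, and H3K27ac cells at 21 genes in BTSC and 21 in NSC, with most GABA-A genes grey throughout.

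The 4 AMPA receptor genes, which encode the subunits of the channels that carry fast excitation, all had more covered bp in NSC, though Gria1 had no difference with −log10 q of 5 or more. Gria2, whose edited subunit makes the channel impermeable to calcium, had 5886 covered bp in BTSC and 6482 bp in NSC. Its promoter lay in an H3K27ac peak of 4533 bp in BTSC and 5859 bp in NSC. The fold, read from the authors' peak values, was 9.78 in BTSC and 16.7 in NSC. The NSC list had 2 TLX peaks there, with folds of 4.86 and 3.82, and their summits lay 0.141 and 2.24 kb past the start; the BTSC list had none. Gria4 had 0 covered bp in BTSC and 2081 bp in NSC, in a single peak over its start with a fold of 6.6, and it had no TLX peak. Gria3 had 2374 bp in BTSC and 2560 bp in NSC, a near-equal pair.

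The promoter windows of Gria2 and Gria4 are shown because the first carried H3K27ac in both cultures and TLX in NSC, and the second H3K27ac in NSC alone. Each window runs from 250 bases before to 50 after the start, 5′ to 3′ on the strand of the gene, from RefSeq, GRCm38.p6. Capitals mark CG dinucleotides, at which promoters of active genes are commonly dense; Gria2 has 26 and Gria4 has 17. The positions are chr3:80802786-80803085 on the minus strand and chr9:4796185-4796484 on the minus strand.
Gria2: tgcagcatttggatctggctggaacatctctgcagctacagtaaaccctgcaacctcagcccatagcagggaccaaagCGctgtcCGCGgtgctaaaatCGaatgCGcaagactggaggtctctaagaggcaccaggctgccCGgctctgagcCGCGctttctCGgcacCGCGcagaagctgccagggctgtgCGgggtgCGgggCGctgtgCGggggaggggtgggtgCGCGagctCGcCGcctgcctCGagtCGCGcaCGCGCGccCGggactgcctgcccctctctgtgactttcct
Gria4: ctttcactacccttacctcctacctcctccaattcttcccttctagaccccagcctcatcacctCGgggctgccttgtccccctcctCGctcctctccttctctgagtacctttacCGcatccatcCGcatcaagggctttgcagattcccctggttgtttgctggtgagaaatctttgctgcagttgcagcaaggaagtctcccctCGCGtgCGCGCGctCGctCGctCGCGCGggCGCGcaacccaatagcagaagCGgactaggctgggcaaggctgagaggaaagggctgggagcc

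Gria1 encodes the subunit that is most tied to synaptic plasticity. Its TLX peaks were called at separate sites of the gene. The BTSC peak lay 103 kb from the gene end of lower coordinate, at chr11:57114214-57114840, with a fold of 6.87, and the NSC peak lay 78.3 kb from that end, at chr11:57089686-57090233, with a fold of 4.03. Neither peak overlapped H3K27ac of either culture. Within the body of Gria1 and 10 kb around it, 0 bp were covered in BTSC and 3820 bp in NSC, in 4 peaks. So Gria1 counts among the genes with TLX in both lists without a shared site.

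The delta receptors are relatives of the AMPA receptors that glutamate does not open. Grid1 held 0 TLX peaks in BTSC and 3 in NSC, with folds from 4.40 to 5.55, and all 3 lay in H3K27ac of both cultures. Over its body and 10 kb, 7070 bp were covered in BTSC and 18449 bp in NSC.

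Kainate receptors modulate transmitter release and excitability, and 4 of their 5 genes had more covered bp in NSC, though Grik2 (5108 bp in BTSC and 5111 bp in NSC) and Grik5 (9096 bp in BTSC and 9139 bp in NSC) differed by 3 and 43 bp, and with −log10 q of 5 or more Grik1 and Grik5 had more in BTSC. The largest difference toward NSC in the whole set was that of Grik3, with 5204 bp in BTSC and 16211 bp in NSC. Over the Grik3 body and 10 kb around it, 14051 bp were covered in BTSC and 40579 bp in NSC, in 6 BTSC and 11 NSC peaks over the gene. The peak over its start was 2541 bp wide in BTSC and 7563 bp in NSC. The NSC list placed 2 TLX peaks in Grik3, with folds of 4.97 and 3.82, both in H3K27ac of both cultures. Grik1 had H3K27ac at its upper end in NSC alone, in a peak of low fold (3.32), while 2208 bp in BTSC and 3123 bp in NSC were covered near its ends. Grik4, which encodes a subunit of high affinity for kainate, was the exception, with 3223 bp in BTSC and 2371 bp in NSC. It held 2 NSC TLX peaks, with folds of 4.78 and 4.27, the first outside H3K27ac of either culture.

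**Figure D2:**
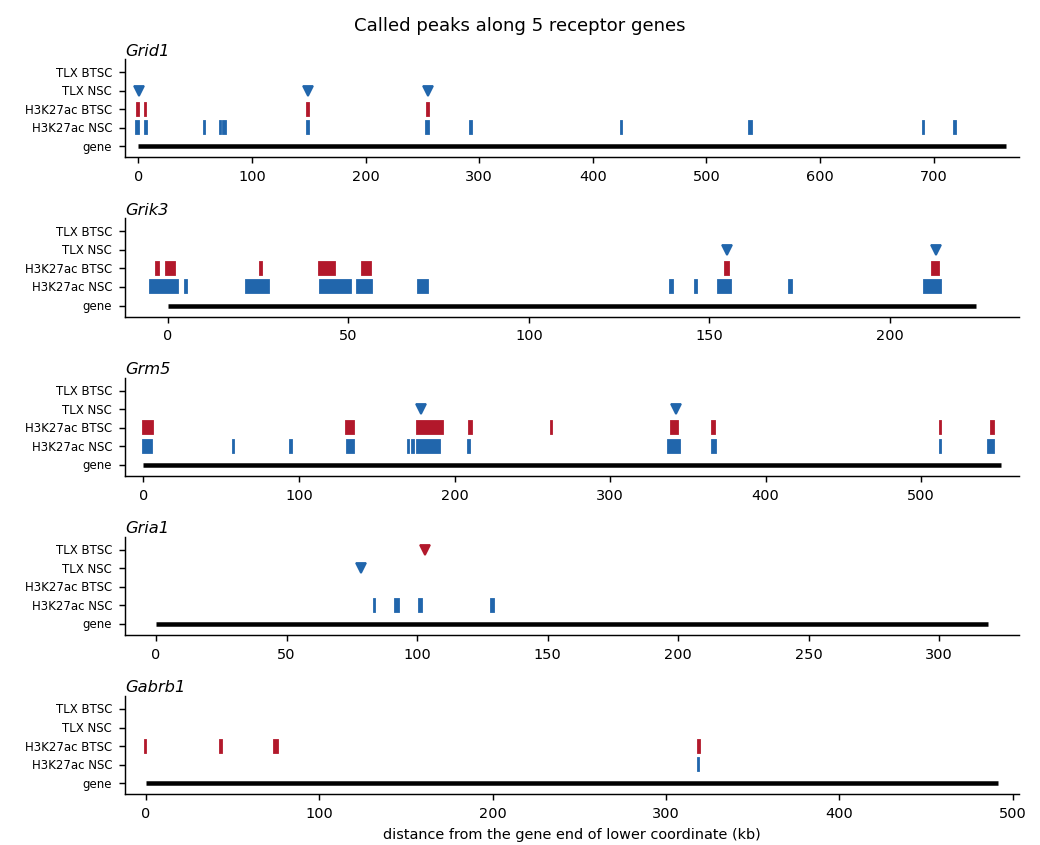
Called peaks along 5 receptor genes, against the distance in kb from the gene end of lower coordinate. Triangles mark TLX summits, bars H3K27ac peaks (widened to be visible), red BTSC and blue NSC, and the black line the gene. Grid1 shows 3 blue triangles and Gria1 a red and a blue triangle at separate places, Grik3 has wider blue than red bars, and Gabrb1 has more red bars than blue.

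The NMDA receptor is a calcium-permeable channel in which the obligatory Grin1 subunit joins a Grin2 or Grin3 subunit. Grin1 and Grin2c had no H3K27ac peak at an end in either culture, and neither did Grin2a and Grin2b. Grin1 had 9074 covered bp in BTSC and 5276 bp in NSC within 25 kb of its ends, but 0 bp in either over its body and 10 kb around it, so all of that length lies farther out. The same holds for most of Grin2c, with 9122 bp in BTSC and 17515 bp in NSC near the ends, and 1102 bp in BTSC and 1173 bp in NSC over the body and 10 kb. The Grin1 promoter, chr2:25319138-25319437 on the minus strand, is shown because its 33 CG dinucleotides stand beside 0 H3K27ac peaks.
Grin1: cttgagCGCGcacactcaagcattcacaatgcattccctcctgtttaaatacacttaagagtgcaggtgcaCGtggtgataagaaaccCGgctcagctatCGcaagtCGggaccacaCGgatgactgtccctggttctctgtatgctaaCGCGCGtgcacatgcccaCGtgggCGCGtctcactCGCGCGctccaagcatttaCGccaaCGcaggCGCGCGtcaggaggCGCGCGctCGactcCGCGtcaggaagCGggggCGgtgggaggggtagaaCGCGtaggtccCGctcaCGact

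Grin2b encodes the subunit that prevails in the embryonic forebrain, and it was the 1 NMDA receptor gene with TLX. The 3 peaks were all in NSC, with folds of 7.46, 5.55 and 5.16, and the 2 stronger ones lay outside H3K27ac of either culture. Near its ends, 0 bp were covered in BTSC and 1837 bp in NSC. Grin2d and Grin3b had H3K27ac at an end in both cultures, in peaks also within 1 kb of an end of Grwd1 and of Wdr18. Grin2d, unlike Grin3b, also had H3K27ac over its promoter window in both cultures. That peak was 584 bp wide in BTSC and 2236 bp in NSC, with a −log10 q of 3.29 in BTSC and 4.03 in NSC. Grin2d had 10036 bp in BTSC and 11568 bp in NSC, and Grin3b 9880 bp in BTSC and 6385 bp in NSC. Grin3a, whose subunit lowers calcium entry, had an unshared peak of 3963 bp in BTSC and 4881 bp in NSC at its upper end, with a fold of 8.16 in BTSC and 12.9 in NSC. Grin2a had covered bases inside the gene only, with 2450 bp in BTSC and 3945 bp in NSC.

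Metabotropic receptors of group I couple to calcium release, and those of groups II and III lower cyclic AMP. Grm5 (group I), which progenitors and astrocytes also express, carried the widest H3K27ac peak over any receptor gene in both cultures. It was 17135 bp wide in BTSC and 14970 bp in NSC, in the top 0.563% of the BTSC list and the top 0.576% of the NSC list by width. The NSC list had 2 TLX peaks in Grm5, with folds of 6.88 and 5.26, the second inside that wide peak, and both lay in H3K27ac of both cultures; the BTSC list had none. Over the body and 10 kb around it, 38950 bp were covered in BTSC and 45573 bp in NSC.

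Grm3 (group II), known as the main metabotropic glutamate receptor of astrocytes, had 20798 covered bp in BTSC and 12224 bp in NSC near its ends, and 28373 bp in BTSC and 25028 bp in NSC over its body and 10 kb around it. The H3K27ac peak over its start was 12976 bp wide in BTSC and 3570 bp in NSC, whereas its fold was 7.28 in BTSC and 13.5 in NSC. A TLX peak 63.2 kb inside the gene, with a fold of 6.32, was called in NSC and lay in H3K27ac of both cultures. Grm2, the other gene of group II, had no peak of any kind near it. In group III, Grm4, a presynaptic receptor, was the 1 receptor gene with TLX in the BTSC list alone. That peak, chr17:27422655-27423218, had a fold of 5.48, its summit was 0.543 kb inside the lower end, and it lay in a BTSC H3K27ac peak of 1089 bp. In NSC the H3K27ac peak of Grm4 was at the upper end, so the gene counts as marked in both through different ends. Grm7 held 1 NSC TLX peak with a fold of 4.40, and Grm8 had 0 covered bp in BTSC and 1213 bp in NSC. Grm6, the receptor of ON bipolar cells of the retina, had no TLX and no H3K27ac at an end, with 4051 bp in BTSC and 4108 bp in NSC farther out.

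Grin2b, Grm7 and Grm8 lie on chromosome 6, where the BTSC list had 1609 H3K27ac peaks and the NSC list 1997. The TLX lists had 75 peaks there in BTSC and 769 in NSC. None of these genes had a TLX peak in BTSC, while Grin2b and Grm7 had TLX in NSC, beside 42.3% of all genes on that chromosome. Grin2b and Grm8 had more covered bp in NSC, beside 24.1% of all genes there with more in BTSC and 47.9% with more in NSC. What part the chromosome has in their values was not tested. No receptor gene lies on chromosome 1, and over the 44 genes on other chromosomes 10 had more covered bp in BTSC (22.7%) and 20 in NSC (45.5%). The shares of all genes off chromosomes 1 and 6 were not counted, so these have no matched background.

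**Figure D3:**
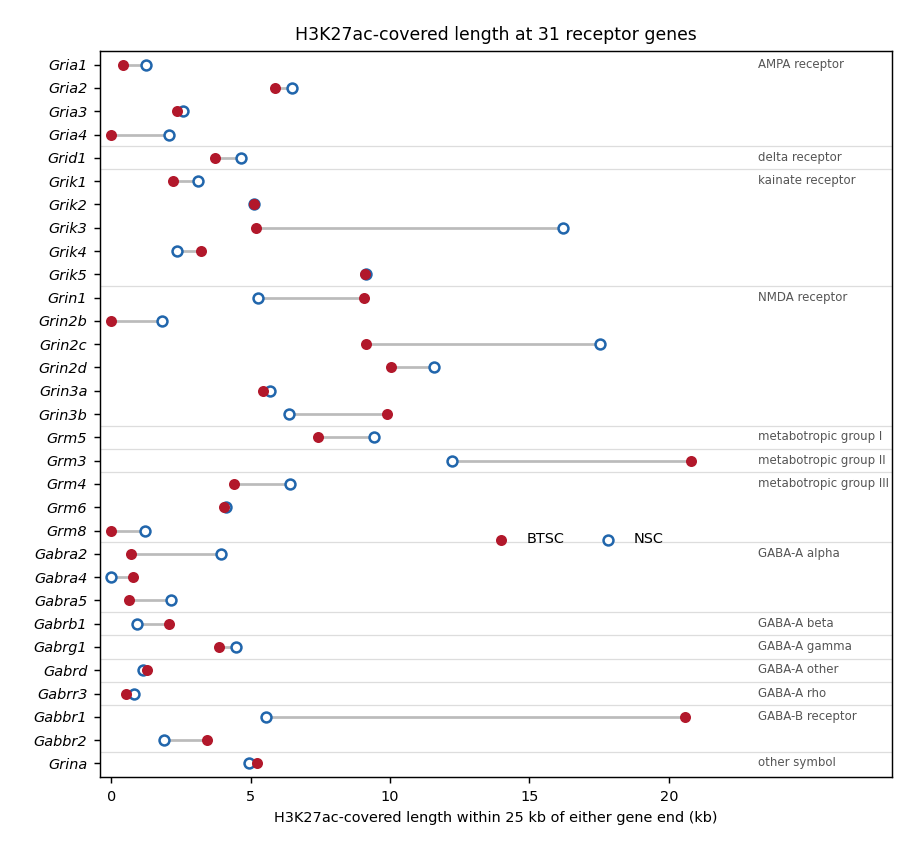
H3K27ac-covered length, in kb, within 25 kb of either gene end, for 31 of the 33 receptor genes with any, in BTSC (filled red) and NSC (open blue), grouped by receptor class. Grik3 and Grin2c stand apart toward NSC, with 16211 and 17515 bp there, and Gabbr1 and Grm3 toward BTSC, with 20565 and 20798 bp there.

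GABA-A receptors are channels of 5 subunits, mostly of the alpha, beta and gamma kinds. Of their 19 genes 11 had no covered base near their ends in either culture, among them Gabrb2, Gabra3 and Gabra6. That is 57.9% (33.5 to 79.7), beside 26.7% of all protein-coding genes. Gabra2 had 704 covered bp in BTSC and 3949 bp in NSC, and a TLX peak in NSC alone, 0.194 kb before its start, with a fold of 4.34. That peak lay in H3K27ac of both cultures, in a peak of low fold (2.39) in BTSC and of 7.68 in NSC. Gabra5 had 630 covered bp in BTSC and 2148 bp in NSC. The peak at its upper end, which is not its alone, was 630 bp wide in BTSC and 1481 bp in NSC. On the strand of Gabra5 this is the 5′ end of the gene, although the start used for its promoter window lies elsewhere. Gabra4 and Gabrb1 also share a peak, 773 bp wide within 1 kb of both starts, called in BTSC alone with a fold of 2.31; in the order of q it stood at 99.3% of its list. Over the body of Gabrb1 and 10 kb around it, 4949 bp were covered in BTSC and 717 bp in NSC, which includes a BTSC peak of 2734 bp 75.2 kb inside the gene.

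Gabrg1, a gamma subunit known from Bergmann glia and from parts of the limbic brain, had the 1 TLX site shared by both lists. The peak was chr5:70842966-70843471 in BTSC, with a fold of 5.72 and a summit 0.579 kb before the start. In NSC it was chr5:70842846-70843701, with a fold of 8.41, a summit 0.556 kb before the start and a place in the top 7.87% of the list. It lay in an H3K27ac peak of 3851 bp in BTSC and 4474 bp in NSC, with a fold of 8.92 in BTSC and 11.6 in NSC. Among its neighbours on chromosome 5, Gabra2 was also marked in both cultures, with the wider peak in NSC, and Gabra4 and Gabrb1 were marked in BTSC alone.

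The promoter windows of 3 of these neighbours are shown, since they differ in marking and in sequence. Gabra2, chr5:71095800-71096099 on the minus strand, has 25 CG dinucleotides and lies within the NSC TLX peak. Gabrg1, chr5:70842568-70842867 on the minus strand, has 3, with H3K27ac in both cultures. Gabrb1, chr5:71657671-71657970 on the plus strand, has 25, with H3K27ac in BTSC alone.
Gabra2: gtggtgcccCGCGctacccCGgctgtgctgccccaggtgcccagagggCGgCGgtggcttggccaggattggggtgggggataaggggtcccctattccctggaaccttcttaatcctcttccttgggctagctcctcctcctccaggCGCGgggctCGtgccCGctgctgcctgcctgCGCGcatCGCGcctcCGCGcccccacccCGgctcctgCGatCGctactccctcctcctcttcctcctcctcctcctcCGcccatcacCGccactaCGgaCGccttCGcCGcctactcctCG
Gabrg1: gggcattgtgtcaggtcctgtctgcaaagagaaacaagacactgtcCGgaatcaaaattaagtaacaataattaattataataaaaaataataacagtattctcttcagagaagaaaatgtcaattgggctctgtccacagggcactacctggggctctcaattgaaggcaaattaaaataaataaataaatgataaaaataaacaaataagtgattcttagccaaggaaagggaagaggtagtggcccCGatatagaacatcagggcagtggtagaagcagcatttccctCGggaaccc
Gabrb1: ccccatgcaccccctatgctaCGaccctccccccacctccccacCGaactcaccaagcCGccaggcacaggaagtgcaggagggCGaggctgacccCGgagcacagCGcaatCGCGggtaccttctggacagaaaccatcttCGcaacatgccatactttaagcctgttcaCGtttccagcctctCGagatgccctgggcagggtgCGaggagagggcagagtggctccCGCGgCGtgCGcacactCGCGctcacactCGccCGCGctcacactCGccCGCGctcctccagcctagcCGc

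The remaining GABA-A genes were bare or nearly so. Gabre, Gabrp, Gabrq, Gabrr1 and Gabrr2 had no covered base, Gabrd had 1283 bp in BTSC and 1125 bp in NSC, none of it over the gene or 10 kb around it, and Gabrr3 had 515 bp in BTSC and 833 bp in NSC. Gabrg3 had 0 near its ends, and 1455 bp in BTSC and 2270 bp in NSC inside the gene. Both GABA-B genes, by contrast, had more covered bp in BTSC. Gabbr1, the subunit that binds GABA, had 20565 bp in BTSC and 5564 bp in NSC, the largest difference of the set. Its promoter peak was 1666 bp wide in both lists, with a fold of 10.0 in BTSC and 8.77 in NSC. A BTSC peak of 12487 bp came within 1 kb of the 3′ end of the gene without reaching it, and NSC had none within 1 kb. Gabbr2, the subunit that couples to G proteins, had 3443 bp in BTSC and 1875 bp in NSC near its ends, and 16000 bp in BTSC and 8190 bp in NSC over its body and 10 kb. With −log10 q of 5 or more, Gabbr2 had 775 bp in BTSC and 683 bp in NSC near its ends. Its BTSC peak near the start had a low fold of 3.12. Grina had 5244 bp in BTSC and 4956 bp in NSC.

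Of the 24 NSC TLX peaks at receptor genes 22 had their summit inside the gene and 21 were over 1 kb from either end. The rule takes peaks inside a gene or within 10 kb of it, which in long genes favours peaks inside. The same counts were not made over all genes. In H3K27ac of NSC lay 19 of the 24, which is 79.2% (57.8 to 92.9), beside 91.6% of all NSC TLX peaks, and 14 lay in H3K27ac of BTSC. Of these, 1 of the 24, at Gabrg1, overlapped a BTSC TLX peak (4.17%, 0.105 to 21.1), beside 15.8% of all NSC peaks. Of the 3 BTSC peaks 2 lay in BTSC H3K27ac, beside 93.2% of all BTSC TLX peaks. Folds ran from 5.48 to 6.87 in BTSC, with a median of 5.72 beside 5.26 for the list, and from 3.82 to 8.41 in NSC, with a median of 5.07 beside 4.78. The strongest BTSC peak by rank, at Gria1, stood in the top 20% of its list.

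**Figure D4:**
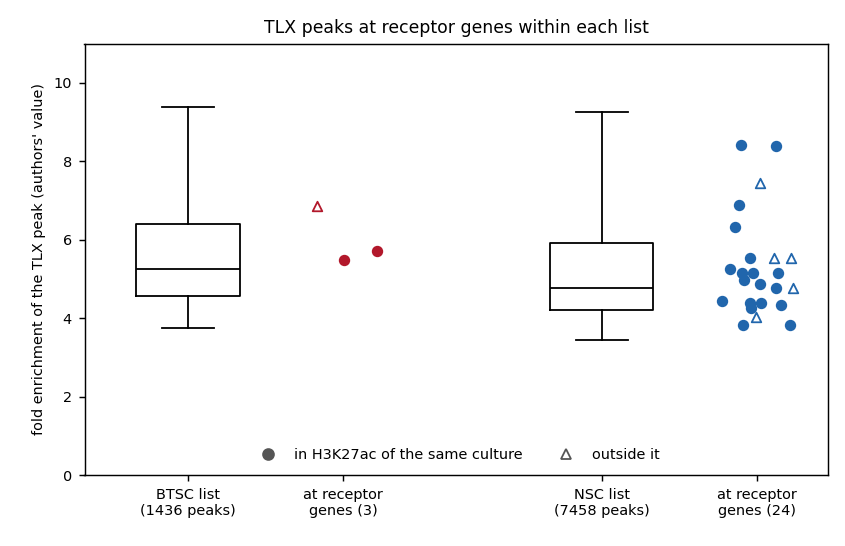
Fold enrichment of TLX peaks, read from the authors' peak values, for each whole list and for the peaks at receptor genes, BTSC left and NSC right. Boxes give the 25th to 75th percentile with the median, and whiskers the 5th and 95th percentile. Filled points lie in H3K27ac of the same culture and open triangles outside it; the receptor peaks lie between 5.48 and 6.87 in BTSC and between 3.82 and 8.41 in NSC, within the whiskers of their lists.

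Peaks farther from the genes were seen when each TLX peak was given to the gene with the nearest end. In BTSC this added a peak 154 kb from Grin2b, with a fold of 4.41, and a peak 215 kb from Grm7, with a fold of 5.72. Both sites were shared with NSC, where their folds were 4.68 and 10.5. In NSC it also added a peak 68.3 kb from Grin2b, with a fold of 5.0. These distal sites of chromosome 6 lie between genes, and nearness says nothing of which gene they act on.

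Genes that handle the transmitters, rather than sense them, were counted in the same way. Of 13 genes of glutamate uptake, release and metabolism 9 had more covered bp in BTSC (69.2%) and 3 in NSC (23.1%). Of 9 genes of GABA synthesis, transport and breakdown 7 had more in BTSC (77.8%) and 2 in NSC (22.2%). Among the 7, Slc6a12 and Slc6a13 on chromosome 6 had the same values, 1536 bp in BTSC and 629 bp in NSC, so they may not be separate places. Over all protein-coding genes these shares were 42.9% in BTSC and 30.4% in NSC. The astrocyte markers, as given above, also had more in BTSC, and their part in these values was not tested. Slc1a4, a transporter of neutral amino acids, had 23167 bp in BTSC and 10759 bp in NSC, and Glud1, glutamate dehydrogenase, 25442 bp in BTSC and 12994 bp in NSC. Slc6a11, a glial GABA transporter, had 49226 bp in BTSC and 39909 bp in NSC. In the glutamate list TLX lay at 4 genes in BTSC (30.8%, beside 5.12% of all genes) and 5 in NSC (38.5%, beside 24.8%), with Slc1a2 and Slc1a3, the glial glutamate transporters, and Glul and Glud1 in both. In the GABA list it lay at 1 gene in BTSC (11.1%) and 3 in NSC (33.3%). These lists are short, and each share rests on few genes.

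Of 16 genes of auxiliary subunits of glutamate receptors 4 had more covered bp in BTSC (25%) and 10 in NSC (62.5%), beside 42.9% of all genes in BTSC and 30.4% in NSC. Cacng4, Cacng7 and Cacng8, which encode transmembrane partners of AMPA receptors, all had more in NSC: Cacng4 9424 bp in BTSC and 18138 bp in NSC, Cacng7 9238 bp in BTSC and 11752 bp in NSC, and Cacng8 6595 bp in BTSC and 10165 bp in NSC. Cbln1, a cerebellin, had 1016 bp in BTSC and 0 in NSC, with H3K27ac at an end in BTSC alone. TLX lay at 1 of the 16 in BTSC (6.25%, beside 5.12% of all genes) and 6 in NSC (37.5%, beside 24.8%). Of 20 scaffold and trafficking genes 10 had more covered bp in BTSC (50%) and 9 in NSC (45%). Of 5 glycine receptor genes 1 had more in BTSC and 2 in NSC, with TLX at none. The 94 potassium channel genes (Kcn), another family of membrane channels, had 36 with more covered bp in BTSC (38.3%) and 39 in NSC (41.5%). TLX lay at 3 of them in BTSC (3.19%) and 24 in NSC (25.5%), which in NSC is close to the 24.8% of all genes. H3K27ac lay at an end of 30 in BTSC (31.9%, beside 51.7% of all genes) and 33 in NSC (35.1%, beside 52.2%). Whether the receptor genes differ from any of these lists was not tested.

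Promoter sequence was compared for the 32 receptor genes with a window in the RefSeq table. Windows with at least 15 CG dinucleotides, a limit chosen after the values were seen, usually carried H3K27ac within 1 kb of the start: 83.8% did in BTSC and 84.8% in NSC among 8283 such genes of the whole table. Of 15 such receptor windows 8 did in BTSC and 8 in NSC (53.3% each). The 5 that did in neither were Gabre, Gabrq, Grin1, Grin2c and Grm2. With 5 to 14 CG dinucleotides, 4 of 9 receptor windows were marked in BTSC and 3 in NSC, beside 43.5% of all in BTSC and 43.7% in NSC. With 4 or fewer, 2 of 8 were marked in both, Gabrg1 and Grin3b, beside 6.36% of all in BTSC and 6.20% in NSC. The Grin3b peaks, also within 1 kb of an end of Wdr18, did not overlap its window. Their −log10 q was 2.72 in BTSC and 3.77 in NSC, below the stricter limit of 5. By H3K27ac within 1 kb of the start, the median CG number was 25 for BTSC alone (Gabbr2, Gabra4 and Gabrb1), beside 11.5 over all genes of that class. It was 25 for NSC alone (Gria4 and Grm8), beside 15, 18 for both, beside 22, and 10.5 for neither, beside 3. The peaks of Gabbr2 and Gabra4 did not overlap their windows, and their −log10 q was 3.53 and 1.19.

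AAGTCA, the hexamer that TLX is known to bind, was searched on both strands and found in 4 of the 32 windows (12.5%), beside 13.2% of all windows. In Gria2 it lies on the strand opposite to the gene, 40 bases after the start, within the NSC TLX peak and 96 bp from its summit; it reads tgactt near the end of the Gria2 window given above. Gabrr1 and Gabrr2 hold 1 each, and Gabra6 holds 2, with no TLX peak there. TTCAGCACC, a part of the element bound by the repressor REST, was found in Grm2 alone, beside 0.412% of all windows. Gabra6, a subunit of cerebellar granule cells, is shown as a window with both hexamers (at 230 and 186 bases before the start) and 2 CG dinucleotides, with no H3K27ac in either culture, chr11:42321023-42321322 on the minus strand. These matches are descriptions of letters and not sites.
Gabra6: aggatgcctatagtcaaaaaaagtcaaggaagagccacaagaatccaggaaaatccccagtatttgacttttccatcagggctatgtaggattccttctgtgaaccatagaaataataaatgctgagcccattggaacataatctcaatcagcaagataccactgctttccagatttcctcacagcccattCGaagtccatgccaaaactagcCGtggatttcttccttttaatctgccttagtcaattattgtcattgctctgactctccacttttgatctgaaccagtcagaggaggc

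**Figure D5:**
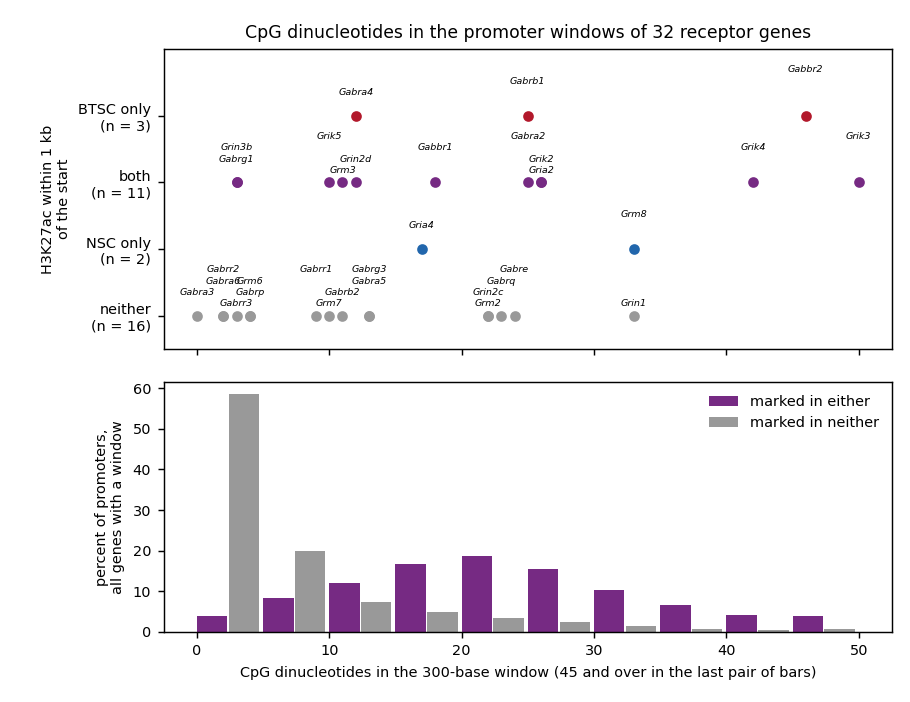
CG (CpG) dinucleotides in the promoter window of 300 bases. The upper panel has a point for each of 32 receptor genes, by whether H3K27ac was called within 1 kb of the start in BTSC only (3), both (11), NSC only (2) or neither (16); the lower panel gives the percent of windows of all protein-coding genes in each bin of CG number, marked in either culture (purple) or in neither (grey). Among receptor genes marked in neither, Grm2, Grin2c, Gabrq, Gabre and Grin1 lie at 22 to 33, where windows of the genome are mostly marked.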

How the data were processed

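The authors deposited 4 peak lists from chromatin immunoprecipitation with sequencing, 1 for each library: narrow peaks for TLX and broad ones for H3K27ac. Per the submitters' processing notes, the tools were bcl2fastq 2.17.1.14, Bowtie and ChIPseeker, on mm10. Which caller made the lists, with what settings, is not given in the sources used here. Per the labels' protocols, cells were fixed for 10 min in 1% formaldehyde and paired reads of 50 bp were taken. For every peak the authors give a value that is read here as a fold, a linear ratio to background. They also deposited values read as its p-value and q-value as −log10, and a score that equals 10 × −log10 q as a whole number. These readings rest on the layout of the peak lists. These values served to describe, rank or filter peaks within a list.

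Peaks were counted at genes by overlap of at least 1 bp, with Python 3.11.15, pandas 2.3.3 and scipy 1.17.1. RefSeq gene ends of GRCm38.p6 were used; strand is known from its promoter table for 32 receptor genes, and 16 have no window there. Intervals are exact Clopper-Pearson 95% intervals. With 1 library per group, nothing was tested and p-values are not given. The counting was tested on simulated peaks. Values are given for each gene with TLX, each whose H3K27ac class differs, and the 10 genes per direction with the largest covered difference; others that are named were chosen after their values were seen. A few genes are counted in the totals but are not reported by name here. The members and lists were chosen with earlier results of these data known.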

Additional observations from a re-analysis of the deposited data

How the results depend on the processing

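Without replicates, the counts were set against other ways of counting. Receptor genes with TLX were 3 in BTSC, 12 in NSC and 2 in both, and windows of 25 kb, or peaks with −log10 q of 5 or more (a stricter q), gave the same counts. Genes with TLX in both were 1 with the gene body only. With the gene of nearest end, 5 genes had TLX in BTSC and 4 in both. With the NSC list cut to as many peaks as BTSC has, 4 genes had TLX in NSC (Gabrg1, Grin2b and Grm5 among them) and 1 in both, against 3 in BTSC. All genes were not counted under that cut. H3K27ac at the annotated start only, known for 32 genes, was found at 14 genes in BTSC, 13 in NSC and 11 in both, with 2 in NSC only; fewer genes could be counted. The BTSC-only class fell to 1 gene with a stricter q (Grm4) and to 1 with equal numbers of peaks. It fell to 1 (Gabbr2) without peaks that also lie within 1 kb of an end of another gene, an alternative chosen after seeing the data. The NSC-only class held 2 genes without chromosomes 1 and 6, and 5 with a stricter q (Gabra2, Gabra5 and Gria4 among them). More covered bp in NSC was found at 19 to 25 genes, and in BTSC at 9 to 11, with body windows, a stricter q, scaling per chromosome or without chromosomes 1 and 6. Counting only differences of over 1.5 times, also chosen after seeing the data, gave 7 in BTSC and 11 in NSC. Scaled per chromosome, 9 receptor genes had more in BTSC and 24 in NSC. On that scale 36.4% of all genes had more in BTSC and 37.0% in NSC, in place of 42.9% in BTSC and 30.4% in NSC. Of the 33 genes with any difference, BTSC minus NSC, Grm6 was reversed over the body and 10 kb (100 bp), and Grik1 (2208 bp) and Grik5 (723 bp) with a stricter q; the cause was not tested. Grina had more in NSC when scaled per chromosome. Grin1 and Gabrd had no difference over the body and 10 kb, and Gria1, Gabra4 and Grm8 none with a stricter q. Depth is unknown, which limits every statement on a missing peak.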
